A study of Homo sapiens with 2 samples.

Results

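MDA-MB-453 is an established breast carcinoma cell line that is widely used as a model of the molecular apocrine type of breast cancer. The data describe 3418 of its cells, out of 14866 kept cells of 6 lines profiled together. The line was chosen as the barcodes of 1 of 6 groups in the deposited matrix, those in which the multiplexing oligo CMO302 had the highest count. A barcode was kept with at least 1000 UMIs (unique molecular identifiers, 1 per captured transcript), at least 500 genes, at most 20% of UMIs in mitochondrial genes and at least 80% of its oligo UMIs from CMO302. Of 3708 barcodes in the group, 257 were over the mitochondrial limit, 38 were under the oligo limit, 19 had too few genes and 2 had too few UMIs, with some barcodes failing more than 1 limit.

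The study sequenced MDA-MB-453, BT-474, MDA-MB-231, HCC38, Hs578T and MDA-MB-436 with a droplet-based 3′ kit, to look for surface markers of subpopulations within cancer cell populations. Each line was a single culture, with no treatment named, labelled with its own lipid-anchored oligo. MDA-MB-453, BT-474 and MDA-MB-231 were mixed into 1 capture, and HCC38, Hs578T and MDA-MB-436 into the other. BT-474 is a luminal line with amplified HER2, and the other lines are classed as triple-negative. With 1 culture per line there is no replicate, so no test across cultures was possible, no p-value is given, and differences of line and culture cannot be told apart. For the lines of the other capture, the capture cannot be told apart from the line either. All intervals are 95% intervals and cover counting error only.

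Tumours of the apocrine type lack the estrogen receptor but keep luminal transcription factors such as GATA3, FOXA1 and XBP1. HER2, encoded by ERBB2, and the fibroblast growth factor receptor FGFR4 are receptor tyrosine kinases that pass growth signals through adaptors such as GRB2. Apocrine cells are named for the sweat-gland type of secretion and are known for proteins such as AZGP1, PIP and CLCA2.

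The 3418 cells held 75.53 M UMIs, and the median cell had 20274 UMIs, 4831.5 genes, 9.86% mitochondrial UMIs and 97.39% of oligo UMIs from CMO302. Median depth in the other lines lay between 26165 UMIs in MDA-MB-231 and 38173 UMIs in Hs578T. Just inside the oligo limit, 22 cells had 80 to 85% of oligo UMIs from CMO302, and just outside it 23 barcodes had 75 to 80%. Just inside the mitochondrial limit 29 cells had 18 to 20%, and just outside it 18 barcodes had 20 to 22%. Scrublet called 34 of the cells doublets, and 42 held transcripts of another line of the capture at 25% or more of that line's level (25 of BT-474 and 17 of MDA-MB-231), which made 47 cells by either rule. Barcode sequences were shared with 4 HCC38, 1 Hs578T and 4 MDA-MB-436 cells, all from the other capture. In the median MDA-MB-453 cell, genes specific to BT-474 stood at 7.08% of their level in BT-474, and genes specific to MDA-MB-231 at 0.814% of their level in MDA-MB-231. Whether these reads came from free RNA in the capture or from the cells themselves was not tested. BASP1, a membrane-bound cytoskeletal regulator, was at 1.88% of its BT-474 level, and VIM, the intermediate filament vimentin, at 1.21% of its MDA-MB-231 level.

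No label ties an oligo to a line, so the group was named from 5 marker genes of MDA-MB-453, and their values describe that choice. FGFR4 (chr5:177086886-177098144, GRCh38, plus strand) was at 384.7 CPM, counts scaled to a library of 1 M UMIs over the summed cells, against 19.5 CPM in BT-474, 5.19 CPM in MDA-MB-231, 7.80 CPM in HCC38, 0.222 CPM in Hs578T and 3.28 CPM in MDA-MB-436. TFAP2B (chr6:50818723-50847613, plus strand), a transcription factor of the AP-2 family, was at 431.6 CPM, against at most 3.45 CPM elsewhere. CLCA2 (chr1:86424086-86456558, plus strand), a regulator of calcium-activated chloride conductance, was at 796.1 CPM, against at most 9.35 CPM. AZGP1 (chr7:99966720-99976157, minus strand), the secreted zinc-alpha glycoprotein, was at 364.9 CPM, against at most 5.47 CPM. IL1R1 (chr2:102064544-102179874, plus strand), the signalling receptor of interleukin-1, was at 236.5 CPM, against at most 21.4 CPM in Hs578T. All 5 were highest in this group, as the name requires.

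The markers were present throughout the group rather than in a few cells. With every cell thinned to 10000 UMIs, and 31 shallower MDA-MB-453 cells set aside, FGFR4 had a UMI in 95.9% of MDA-MB-453 cells (95.2 to 96.5%), against 17.7% of BT-474 cells and 0.117% of Hs578T cells. Without thinning the shares were 99.15% in MDA-MB-453, 39.7% in BT-474 and 0.923% in Hs578T, at median depths of 20274, 28472 and 38173 UMIs. TFAP2B had a UMI in 95.75% of thinned MDA-MB-453 cells and CLCA2 in 97.7%. For TFAP2B the MDA-MB-436 share was 0 of 2097 thinned cells, which allows a share of cells with a UMI of up to 0.143%, taken as 3 counts of the total. IL1R1 was the least uniform of the 5, with a UMI in 73.4% of MDA-MB-453 cells, against 18.8% of Hs578T cells after thinning.

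Ranked by the ratio of CPM + 1 to the highest other line, the genes that set MDA-MB-453 apart were led by TFAP2B, CLCA2 and AZGP1. These are markers by which the group was named, so their place at the top is not a finding. The log2 ratio was 6.60 for TFAP2B, and 5.69 with a pseudocount of 5 CPM. For AZGP1 it was 5.82, and 4.76 with a stricter filter on cells. Of 3162 genes at 50 CPM or more in the line, 55 (1.74%) were at least 4-fold above every other line. The 5 markers are among the 55 and among the 25 leading genes. AKR7A3, an aldo-keto reductase that detoxifies aldehydes, was at 74.7 CPM, against 0.784 CPM in BT-474 and at most 0.612 CPM elsewhere, a ratio to BT-474 of 95.3 (72.9 to 127.0). NUPR2, a paralog of the stress-induced chromatin protein NUPR1, was at 172.1 CPM in MDA-MB-453, against 4.42 CPM in HCC38. TEX9 was at 341.9 CPM in MDA-MB-453, against 11.5 CPM in BT-474. DACH1, a transcriptional regulator of developmental genes, was at 57.6 CPM, against 1.23 CPM in BT-474 and 0 UMIs in HCC38 and Hs578T. Each of these 4 genes was under 12 CPM in the other 5 cultures.

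PEG10, an imprinted gene derived from a retrotransposon, was the most abundant of the leading genes. It stood at 3724 CPM in MDA-MB-453, against 65.4 CPM in BT-474, 105.4 CPM in MDA-MB-231, 144.6 CPM in HCC38, 91.9 CPM in Hs578T and 141.8 CPM in MDA-MB-436. The ratio to HCC38, the next highest line, was 25.8 (25.3 to 26.2).

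Several leading genes encode metabolic or signalling proteins. TDO2, the tryptophan dioxygenase that opens the kynurenine pathway, was at 75.5 CPM, against 2.41 CPM in Hs578T and under 1 CPM in the other 4 lines. SLC1A7, a glutamate transporter, was at 52.3 CPM, against 1.32 CPM in MDA-MB-231. EGLN3, a prolyl hydroxylase that marks hypoxia-inducible factor for decay, was at 566.4 CPM, against 29.8 CPM in BT-474 and 24.3 CPM in HCC38. Calcium handling genes were among them: CRACR2B, a regulator of store-operated calcium entry, was at 660.5 CPM, against 47.3 CPM in BT-474, and the inositol trisphosphate receptor ITPR1 was at 243.2 CPM, against 24.6 CPM in HCC38. CALML5, a calmodulin-like protein of skin, was at 334.6 CPM, against 29.2 CPM in BT-474 and 0 UMIs in Hs578T and MDA-MB-436.

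The rest of the 25 leading genes have varied roles. CAPN8, a calpain protease, was at 53.5 CPM, against 1.63 CPM in BT-474. GATA3-AS1, the antisense partner of the luminal factor GATA3, was at 71.6 CPM, against 2.65 CPM in HCC38, and reads of these overlapping genes may not be fully separable here. SLC16A6, a transporter of the monocarboxylate family, was at 114.3 CPM, against 6.37 CPM in BT-474. SMC1B, a cohesin subunit known from meiosis, was at 96.4 CPM, against 5.54 CPM in HCC38. GUCY1A2, a subunit of soluble guanylate cyclase, was at 115.5 CPM, against 9.67 CPM in BT-474. SIX2, a homeobox factor, was at 55.9 CPM, KLHL35 at 103.9 CPM, ARMC7 at 55.3 CPM and the tyrosine kinase gene TNK2 at 54.8 CPM, between 6.63-fold and 9.69-fold above the next line on the CPM + 1 scale.

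Over these 25 genes the median level in another line, as a percentage of the MDA-MB-453 level, was 3.20% in BT-474, 1.35% in MDA-MB-231, 1.498% in HCC38, 0.323% in Hs578T and 0.373% in MDA-MB-436. The next-highest line was a member of the same capture for 14 of the 25. The part of free RNA in those residual levels was not tested.

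**Figure D1:**
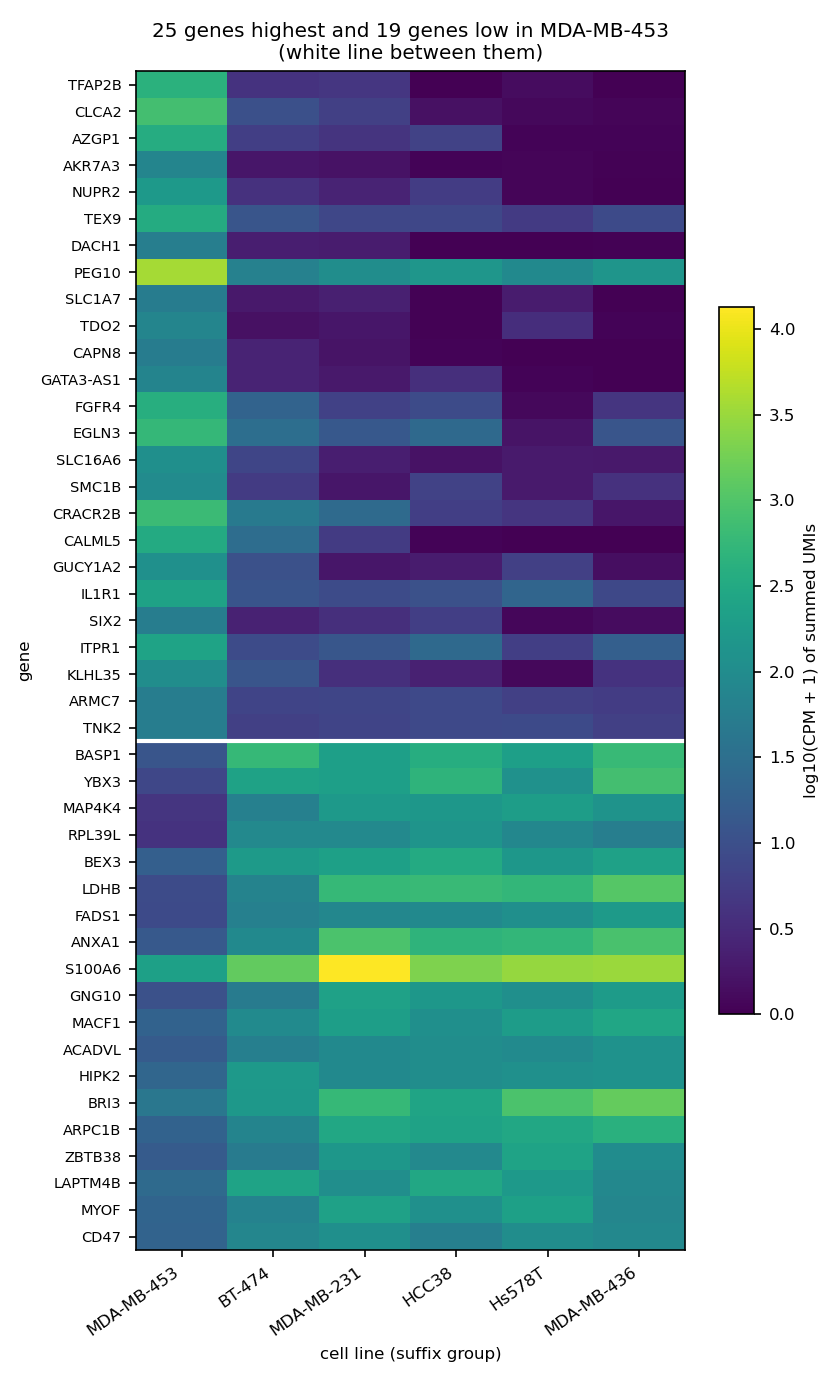
Heat map of log10(CPM + 1) of UMIs summed per line for the 25 genes highest (above the white line) and 19 of the 20 genes lowest (below it) in MDA-MB-453, with 1 column per line. The MDA-MB-453 column is the brightest in every upper row and the darkest in every lower row, and PEG10 at 3724 CPM is the brightest upper cell.

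The genes furthest below the lowest other line were led by BASP1, YBX3, MAP4K4 and RPL39L. Among 1707 genes at 50 CPM or more in all 5 other lines, 13 (0.762%) were at least 4-fold below the lowest of them. BASP1 was at 11.1 CPM, against 590.0 CPM in BT-474, 210.1 CPM in MDA-MB-231, 376.4 CPM in HCC38, 211.4 CPM in Hs578T and 607.9 CPM in MDA-MB-436. YBX3, a Y-box RNA-binding protein, was at 6.51 CPM, against 123.2 to 789.2 CPM. MAP4K4, a kinase upstream of JNK, was at 3.28 CPM, against 62.5 to 195.7 CPM. RPL39L was at 3.07 CPM, against 57.5 to 138.2 CPM, and it shares sequence with RPL39, so its counts are less certain. Among these 4 genes the smallest gap to the lowest other line, on the CPM + 1 scale, was 14.4-fold for RPL39L.

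Metabolic genes were also among the lowest. LDHB, the lactate dehydrogenase subunit of oxidative tissues, was at 7.78 CPM, against 68.5 CPM in BT-474 and 538.1 to 1105 CPM in the other 4 lines. It had a UMI in 4.78% of thinned MDA-MB-453 cells, against 40.0% of BT-474 cells and 99.1% of MDA-MB-231 cells. FADS1, a fatty acid desaturase, was at 7.59 CPM, against 61.5 to 174.8 CPM. ACADVL, which starts the mitochondrial oxidation of very long chain fatty acids, was at 14.2 CPM, against 60.7 to 124.3 CPM.

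The calcium-binding proteins ANXA1 and S100A6 were low as well. ANXA1 was at 13.2 CPM, against 91.4 CPM in BT-474 and 490.2 to 913.0 CPM in the other lines. S100A6 was at 218.7 CPM, against 1395 CPM in BT-474 and 13474 CPM in MDA-MB-231, so its level was 15.7% and 1.62% of the levels of these capture mates. BEX3, GNG10, MACF1, HIPK2, BRI3, ARPC1B, ZBTB38, LAPTM4B, MYOF and CD47 complete the 20 lowest genes. They were between 2.94-fold (CD47, the surface signal that restrains phagocytosis) and 8.81-fold (BEX3) below the lowest other line on the CPM + 1 scale.

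The background for gene groups is the set of 10919 genes at 10 CPM or more in at least 1 line. The ratio was CPM + 1 in MDA-MB-453 over the mean CPM of the other 5 lines + 1. By this ratio 10.5% of these genes stood 2-fold or more above and 23.4% as far below, and the median log2 ratio was -0.152. MDA-MB-453 was above all 5 other lines in 19.5% of the genes and below all 5 in 18.3%. The group counts below are read against these shares. Within the capture, against the mean of BT-474 and MDA-MB-231, the median over all measured genes was -0.011, and against the other capture it was -0.162. In the lists that follow, above and below mean against the mean of all 5 other lines.

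Luminal genes were high as a group, though less so than in BT-474. The estrogen receptor gene and its target PGR lay far below their BT-474 levels. Of 29 measured luminal genes, 14 stood 2-fold or more above and 6 as far below. The median log2 ratio was 0.85, beside 1.61 for BT-474 on the same scale. Against the capture mates the MDA-MB-453 median was -0.02, and against the other capture 2.51. GATA3, the factor that specifies luminal cells, was at 1008 CPM, against 318.7 CPM in BT-474 and at most 62.5 CPM elsewhere. XBP1, a factor of secretory cells, was at 2177 CPM, against 497.9 CPM in BT-474 and at most 171.1 CPM elsewhere, and ANKRD30A, a breast differentiation antigen, was at 158.9 CPM, against 35.5 CPM in BT-474. The pioneer factor FOXA1 was at 284.0 CPM, against 192.0 CPM in BT-474 and at most 6.25 CPM elsewhere. ESR1, the estrogen receptor gene, was at 0.410 CPM, against 23.3 CPM in BT-474. Its target PGR, the progesterone receptor gene, was at 2.25 CPM, against 171.1 CPM in BT-474, and the trefoil factor TFF3 was at 37.4 CPM, against 1064 CPM in BT-474. ESR1, PGR and TFF3 stood at 1.76%, 1.32% and 3.52% of their BT-474 levels.

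The apocrine list was split within itself. Of 8 measured members, 3 stood 2-fold or more above and 5 as far below. The median was -1.34, beside 3.87 for BT-474 on the same scale. CLCA2, AZGP1 and the lipid transporter ABCA12 (19.3 CPM, against 2.15 CPM in BT-474) made up the higher group. CLCA2 and AZGP1 are also markers by which the group was named, so their place among the higher genes is not a finding. The mammaglobin genes SCGB2A2 and SCGB1D2 were at 2.45 CPM and 0.556 CPM in MDA-MB-453, against 193.0 CPM and 47.8 CPM in BT-474. PIP, a secreted protein often used to mark apocrine cells, was at 3.998 CPM in MDA-MB-453 and 4.69 CPM in BT-474, under the level required of a measured gene. MUCL1, a small breast mucin, was at 98.9 CPM, against 1256 CPM in BT-474, which is 7.87% of the BT-474 level.

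Epithelial genes were high as a group, as in BT-474 and HCC38, with some junction genes below the mean of the other lines. Of 31 measured members, 15 stood 2-fold or more above and 4 as far below. The median was 0.92, beside 0.84 for HCC38 and 0.80 for BT-474 on the same scale. The 4 lower ones were PKP2, DSP, DSG2 and CDH1. JUP, the plakoglobin of the same junctions, was at 75.9 CPM, against 111.2 CPM in BT-474, 102.6 CPM in HCC38 and at most 11.3 CPM elsewhere. MAL2, a protein of apical transport, was at 514.3 CPM, against 234.0 CPM in BT-474. ESRP2, an epithelial splicing regulator, was at 33.4 CPM, against 16.3 CPM in BT-474, and SPINT1, a membrane protease inhibitor, was at 153.4 CPM, against 79.4 CPM in HCC38. CDH1, which encodes E-cadherin, was at 20.5 CPM, against 203.7 CPM in BT-474, 91.6 CPM in HCC38 and 3.01 CPM in MDA-MB-231. It had a UMI in 18.4% of thinned MDA-MB-453 cells, against 85.1% of BT-474 cells and 56.5% of HCC38 cells. The share was lower in the other lines, at 2.42% in MDA-MB-231, 0.701% in Hs578T and 0.620% in MDA-MB-436. The CDH1 level was 10.0% of that in BT-474. DSP, the desmosomal linker desmoplakin, was at 37.1 CPM, against 376.5 CPM in BT-474 and 414.0 CPM in HCC38, and PKP2, its plakophilin partner, was at 1.31 CPM, against 21.2 CPM in BT-474.

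Most basal and mesenchymal genes were lower than the mean of the other lines, though some were still expressed. Of 19 measured basal genes, 0 stood 2-fold or more above and 17 as far below, with a median of -2.81. The basal keratin gene KRT14 was at 0.0132 CPM, which is 1 UMI, against 148.6 CPM in Hs578T, and the KRT17 gene was at 0.159 CPM, against 100.9 CPM in Hs578T. The integrin gene ITGA6, of the basal list, was at 54.8 CPM, against 8.74 to 244.8 CPM. Of 36 mesenchymal genes, 35 stood 2-fold or more below and 1 as far above, and the median was -4.78, beside -4.80 for BT-474 on the same scale. VIM was at 24.3 CPM, against 53.1 CPM in BT-474, 2003 CPM in MDA-MB-231, 563.98 CPM in HCC38, 6848 CPM in Hs578T and 1738 CPM in MDA-MB-436. TPM1, a tropomyosin gene, was at 204.2 CPM, against 168.6 to 2065 CPM, while its paralog TPM2 was at 0.583 CPM, against 2145 CPM in Hs578T. THY1, a surface glycoprotein of fibroblasts, had 0 UMIs in MDA-MB-453. The exception was TNC, the matrix protein tenascin-C, at 41.4 CPM, against 26.1 CPM in HCC38 and at most 9.11 CPM elsewhere. The fibroblast genes LUM and DCN and the T cell gene CD3E had 0 UMIs, and all 5 measured genes of immune, fibroblast and endothelial cells were 2-fold or more below, and their median was -3.39.

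**Figure D2:**
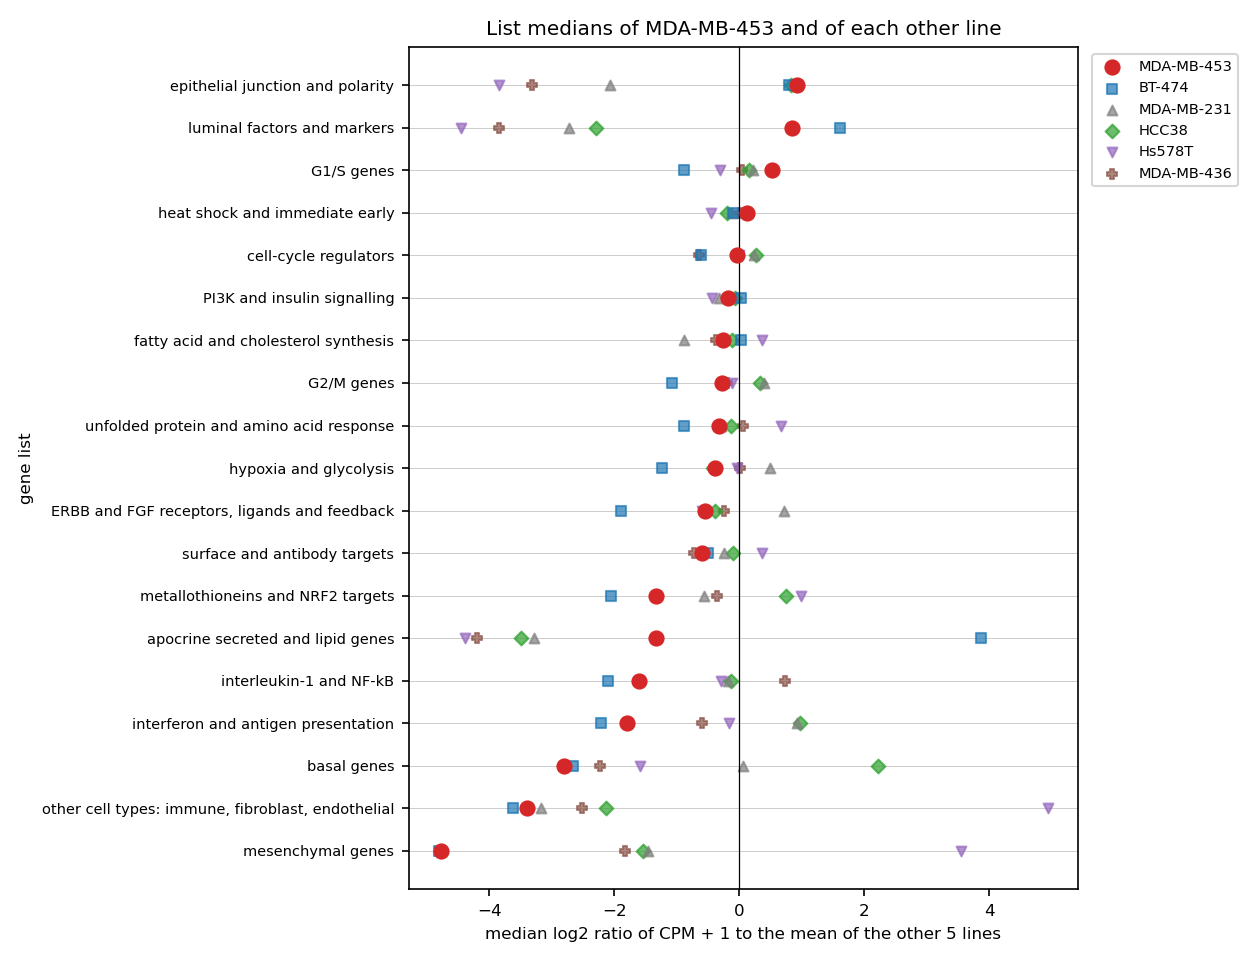
Median log2 ratio of CPM + 1 over the measured genes of each of 19 lists, each line set against the mean of the other 5, with MDA-MB-453 as red circles. MDA-MB-453 lies beside BT-474 in the mesenchymal and basal lists and is highest of the 6 in the G1/S list at 0.53.

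The growth factor receptor list turned on FGFR4, a marker by which the group was named, and on genes below it. Of 31 measured ERBB and FGF genes, 8 stood 2-fold or more above and 15 as far below, with a median of -0.54. ERBB2 was at 157.5 CPM, against 807.8 CPM in BT-474 and at most 29.7 CPM in the other lines, and it had a UMI in 77.5% of thinned MDA-MB-453 cells, 99.7% of BT-474 cells and 6.87% of MDA-MB-436 cells. ERBB3, the partner of HER2 without an active kinase, was at 95.005 CPM, against 62.4 CPM in BT-474. EGFR was at 1.81 CPM, against 7.11 CPM in BT-474 and 49.7 to 115.5 CPM elsewhere. The related receptor gene FGFR1 was at 8.95 CPM, against 14.8 to 110.1 CPM. GRB2 was at 696.1 CPM, against 140.3 CPM or less. The feedback inhibitor genes SPRY1, at 82.4 CPM against 17.4 CPM or less, and DUSP6, at 170.7 CPM against 164.7 CPM in MDA-MB-231, were also higher. The ligand genes EREG (0.728 CPM), NRG1 (1.006 CPM) and FGF2 (0.0397 CPM) were among the lower members.

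Among 27 PI3K and insulin genes, 5 stood 2-fold or more above and 5 as far below, with a median of -0.17, close to that of all genes. PIK3R1, the regulatory subunit of PI3-kinase, was at 134.4 CPM, against 41.1 CPM or less, and PIK3R3, another regulatory subunit, was at 115.0 CPM, against 101.5 CPM in BT-474. AKT1 was at 144.1 CPM, against 66.0 CPM or less. INPP4B, a lipid phosphatase that limits the pathway, was at 2.33 CPM, against 82.7 CPM in BT-474.

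The interleukin-1 pathway beyond IL1R1 was low. Of 22 measured genes of interleukin-1 and NF-kB, 1 (IL1R1, a marker used for the name) stood 2-fold or more above and 14 as far below. The median was -1.60, and BT-474 was lower on the same scale, at -2.10. The ligand gene IL1B was at 0.0265 CPM, against 220.9 CPM in MDA-MB-436, the chemokine gene CXCL8 was at 0.252 CPM, against 36.9 CPM in Hs578T, and the inhibitor of apoptosis gene BIRC3 was at 0.914 CPM, against 48.8 CPM in HCC38. The decoy receptor IL1R2 was at 2.012 CPM, against at most 0.264 CPM, under the level required of a measured gene.

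Interferon and antigen presentation genes were mostly low. Of 33 measured members, 19 stood 2-fold or more below and 4 as far above, and 13 lay below all other lines. The median was -1.79, and BT-474 was lower on the same scale, at -2.22. HLA-B, a classical MHC class I gene, was at 7.20 CPM, against 19.3 CPM in BT-474 and 135.2 to 575.5 CPM elsewhere, and reads shared among HLA class I genes make its counts uncertain. The immunoproteasome gene PSMB9 was at 1.80 CPM, against 3.16 to 156.8 CPM, and IFITM3, which blocks virus entry, was at 3.63 CPM, against 15.4 to 212.1 CPM. BST2, the surface protein tetherin, was at 373.6 CPM, against 218.7 CPM in MDA-MB-231, and IRF7, the factor that amplifies interferon, was at 35.8 CPM, against 6.89 CPM or less. USP18 (31.4 CPM, against 34.2 CPM in HCC38) and IFITM2 (23.7 CPM, against 43.3 CPM in MDA-MB-231) were the other 2 higher members.

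Surface genes differed in both directions. Of 50 measured surface genes, 10 stood 2-fold or more above and 24 as far below, with a median of -0.59. The tetraspanin genes TSPAN15 (84.4 CPM, against 29.3 CPM in BT-474) and TSPAN1 (129.4 CPM, against 78.5 CPM in BT-474) were at the upper end with BST2. The hyaluronan receptor gene CD44 was at 4.29 CPM, against 7.92 CPM in BT-474 and 129.5 to 394.5 CPM elsewhere, and it had a UMI in 3.72% of thinned MDA-MB-453 cells, against 96.6% of Hs578T cells. LY6K, a surface antigen of tumours and testis, was at 0.0397 CPM, against 434.5 CPM in Hs578T, and GPNMB was at 0.265 CPM, against 165.5 CPM in Hs578T.

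Among metabolic genes, the lipid regulator SREBF1 and the prolyl hydroxylase EGLN3 were high and the binding protein FABP5 was low. Of 30 measured lipid synthesis genes, 3 stood 2-fold or more above and 7 as far below, with a median of -0.26. Both shares are close to those over all genes. SREBF1, the regulator of fatty acid synthesis, was at 34.4 CPM, against 19.8 CPM or less, and FASN, fatty acid synthase, was at 123.9 CPM, against 124.0 CPM in BT-474. The fatty acid binding protein FABP5 was at 4.70 CPM, against 26.4 to 398.8 CPM, and the lipid droplet protein PLIN2 was at 0.834 CPM, against 2.47 to 186.7 CPM. Of 26 hypoxia and glycolysis genes, 3 stood 2-fold or more above and 8 as far below, with a median of -0.38. The higher ones were EGLN3, INSIG2 (79.3 CPM, against 23.5 CPM or less) and the hexokinase gene HK2 (31.8 CPM, against 13.3 CPM or less). Beside LDHB, the lactate exporter gene SLC16A3 was at 3.81 CPM, against 5.05 to 190.6 CPM, and ADM was at 0.755 CPM, against 3.16 to 80.4 CPM.

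Of 27 heat shock and immediate early genes, 6 stood 2-fold or more above and 4 as far below, with a median of 0.13. FOS, an early response factor, was at 924.8 CPM, against 200.1 CPM in BT-474, KLF2 was at 195.4 CPM, against 53.9 CPM in BT-474, and JUNB was at 266.7 CPM, against 104.0 CPM or less. The growth arrest gene GADD45A was at 15.7 CPM, against 30.1 to 298.4 CPM. Of 25 genes of the unfolded protein and amino acid response, 2 stood 2-fold or more above and 6 as far below, with a median of -0.33. These shares are close to those over all genes. TRIB3 and SDF2L1 were the higher ones, at 84.0 and 282.2 CPM, while the serine synthesis gene PSAT1 was at 1.67 CPM, against 44.99 to 103.8 CPM. Of 25 metallothionein and NRF2 target genes, 1 stood 2-fold or more above and 17 as far below. The median was -1.33, and BT-474 was lower on the same scale, at -2.05. AKR1C1, a ketosteroid reductase, was at 0.278 CPM, against 344.1 CPM in Hs578T, though its near-identical paralogs make its counts uncertain, and MT1E was at 6.25 CPM, against 774.7 CPM in HCC38.

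Among 24 measured cell-cycle regulators, 3 stood 2-fold or more above and 7 as far below, with a median of -0.03. E2F2, MDM4 and CDKN1B were the higher ones, at 19.99, 84.03 and 75.13 CPM. CDK6, a kinase of the G1 phase, was at 4.75 CPM, against 21.0 to 120.1 CPM. Of 43 G1/S genes 18 lay above all other lines, with 5 at least 2-fold higher, 1 lower and a median of 0.53, led by DTL, a regulator of replication licensing, at 113.4 CPM against 62.8 CPM or less. The exception was TYMS, thymidylate synthase, at 69.5 CPM against 88.4 to 304.2 CPM. Of 54 G2/M genes 3 stood 2-fold or more above and 8 as far below, with a median of -0.27. JPT1, at 1853 CPM against 982.7 CPM or less, and the cohesin loop factor CTCF, at 148.9 CPM against 84.45 CPM or less, led the list.

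Some of the high genes were neighbours on chromosome 17. Of 10906 measured genes with coordinates, 357 (3.27%) were at least 2-fold above the highest other line, against 39 of 655 (5.95%) on chromosome 17. These genes were not spread evenly along it. Between 60 and 70 Mb 16 of 49 measured genes were at least 2-fold above every other line, and between 70 and 80 Mb 20 of 74 were, with median log2 ratios to the mean of the other lines of 0.97 and 0.64. In the first 10 Mb of the chromosome, 0 of 118 were, with a median of -1.08. From RPL38 to GRB2 (chr17:74203582-75405709, GRCh38), all 21 measured genes were above the highest other line and 18 were at least 2-fold above it, with a median of 3.03-fold on the CPM + 1 scale. These intervals were chosen after the values were seen, so the counts are a description.

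The neighbours differ in function. SUMO2, a protein modifier, was at 2929 CPM, against 1004 CPM in MDA-MB-231 and 688.9 CPM or less elsewhere. ATP5PD, a subunit of mitochondrial ATP synthase, was at 867.2 CPM, against 225.7 CPM or less. MRPS7 and MRPL58, proteins of the mitochondrial ribosome, were at 405.2 CPM and 306.6 CPM, against 175.4 CPM or less and 83.2 CPM or less. HID1, a protein of secretory granule traffic, was at 151.4 CPM, against 22.2 CPM in BT-474. GRB2, the adaptor between receptor kinases and RAS, belongs to the same stretch. NT5C and JPT1, which interrupt the run of 2-fold genes, were still above the highest other line by 0.82 and 0.92 on the log2 scale.

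The summed UMIs of genes from the stretch were high in nearly all cells of the line. The 15 genes of the pair of neighbouring runs from FDXR to ARMC7 and from SUMO2 to GRB2 summed to a median of 59 UMIs per cell at 10000 UMIs in MDA-MB-453 (5th to 95th percentile 42 to 76). The median was 10 UMIs in BT-474, 15 in MDA-MB-231, 14 in HCC38, 8 in Hs578T and 9 in MDA-MB-436. The 5th percentile in MDA-MB-453 lies above the 95th percentile of each other line, the highest of which is 23 UMIs in MDA-MB-231. The 15 genes were picked for being at least 2-fold above every other line in these same cells. A gap between the lines therefore follows from the choice and is a description only. The sum rests largely on abundant genes, such as SUMO2 at 2929 CPM, while AC022211.2 was at 11.4 CPM. It does not show that each gene of the stretch was high in each cell. DNA copy number was not measured in these data.

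**Figure D3:**
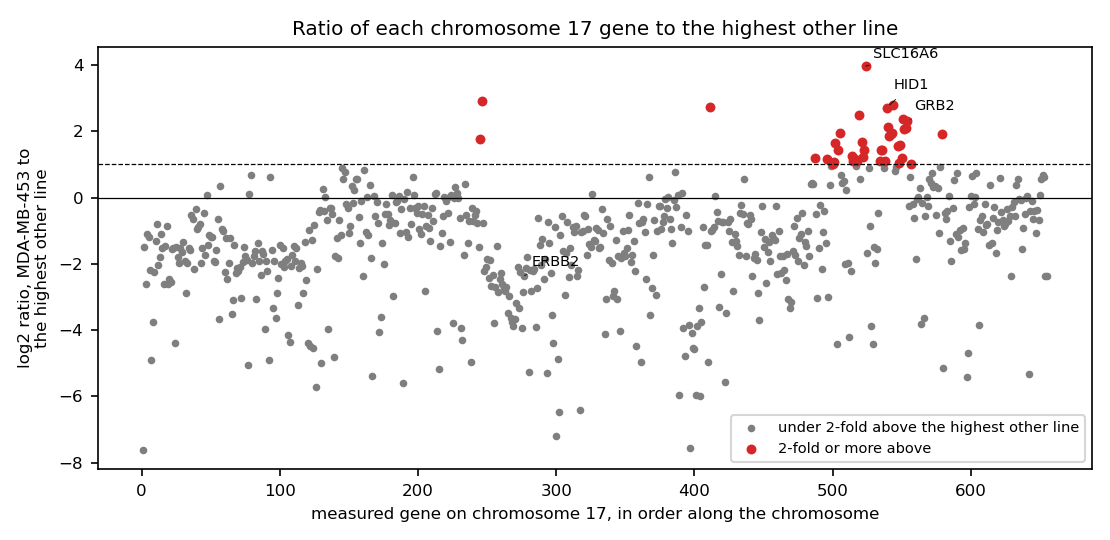
Log2 ratio of CPM + 1 in MDA-MB-453 to the highest other line for each of 655 measured genes of chromosome 17, in order along the chromosome, with genes at least 2-fold above in red. Of the 39 red points, 36 lie between 60 and 80 Mb, a stretch near the far end, which holds SLC16A6, HID1 and GRB2, while ERBB2 lies below 0.

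Other runs were shorter. On chromosome 4, MAP9, GUCY1A1, GUCY1B1 and TDO2 (chr4:155342658-155920406) were each at least 2-fold above the highest other line, with both subunits of soluble guanylate cyclase at 90.2 and 23.6 CPM, against 18.7 CPM or less and 8.14 CPM or less. On chromosome 11, FADS2, FADS1, FADS3 and RAB3IL1 (chr11:61792980-61920269) were each at least 2-fold below the lowest other line on the CPM + 1 scale. The desaturase gene FADS2 was at 2.11 CPM, against 6.53 to 43.7 CPM, and FADS3 was at 2.012 CPM, against 7.62 to 44.2 CPM. Chromosome 22 had 19 of 256 genes (7.42%) at least 2-fold above every other line and a median log2 ratio to the mean of the other lines of 0.58, against -0.152 over all genes.

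Within the line, variation among cells was described by the Fano factor, the variance over the mean of a gene's UMIs per cell after thinning to 10000 UMIs, which is near 1 for counting noise alone. Over 5949 genes with a mean of at least 0.2 UMIs the median was 1.06, 190 genes reached 2 and 20 reached 10. The highest were the nuclear RNA MALAT1 at 72.0, the ferritin heavy chain gene FTH1 at 62.6, MUCL1 at 54.9 and the trefoil factor TFF1 at 38.5. Among the other genes that are not mitochondrial, PEG10 was at 33.2, the matrix Gla protein MGP at 28.8, IGFBP5, which binds insulin-like growth factors, at 19.9 and the nuclear RNA NEAT1 at 17.4. S100P and TDO2, at 15.12 and 14.45, were each found in few cells, 4.04% and 10.95%. The interferon-stimulated gene ISG15 was at 11.8, the mitotic gene CENPF at 10.1 and the histone gene HIST1H4C at 10.1. The mitochondrial genes MT-CO2, MT-ATP6, MT-CO1, MT-CO3, MT-CYB and MT-ND4 lay between 11.8 and 33.9.

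Part of this list rests on mixed cells. Without the doublets and mixed cells, S100A6 dropped out of the list with a Fano factor of 1.61, against 15.8 with them, MUCL1 fell to 21.95 and TFF1 to 15.4. MUCL1 and TFF1 had a UMI in 26.6% and 35.1% of thinned MDA-MB-453 cells, against 75.55% and 91.85% of BT-474 cells and 0 of 2393 HCC38 cells, which by the same limit of 3 counts allows a share of cells with a UMI of up to 0.125%. In MDA-MB-231 cells, which share the capture, the shares were 10.98% and 10.87%. TFF1 stood at 13.0% of its BT-474 level in MDA-MB-453. FTH1, PEG10, MGP, TDO2 and ISG15 moved by less than 1 unit when these cells were removed.

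**Figure D4:**
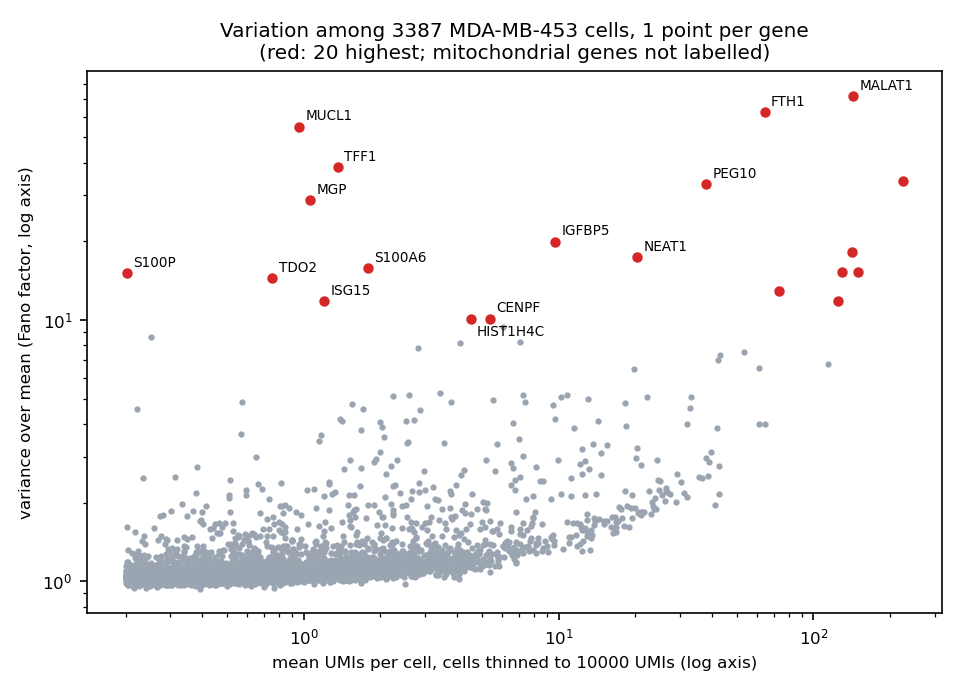
Variance over mean of UMIs per cell against the mean, both on log axes, for 5949 genes in 3387 MDA-MB-453 cells thinned to 10000 UMIs. The 20 genes at 10 or more are red, from HIST1H4C at 10.1 to MALAT1 at 72.0, well above the median gene at 1.06.

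Pearson correlations across the 3387 thinned cells, all from 1 culture and 1 capture at 1 common depth, describe which genes varied together. FTH1 went with NQO1 (r = 0.59), GDF15 (0.58), SLC7A11 (0.49) and S100P (0.46). CENPF went with other mitotic genes such as ASPM (0.71) and MKI67 (0.70), and HIST1H4C with the S-phase genes RRM2 (0.64) and HIST1H1B (0.64). The mitochondrial genes went with each other, as MT-CO2 with MT-CO1 (0.84), and MALAT1 with NEAT1 (0.42). FOS went with the early genes DUSP1 (0.38) and FOSB (0.32). PEG10 went with IL1R1 (0.34), and no other partner of PEG10 passed 0.26. For FGFR4 no partner passed 0.16, too weak to read.

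FTH1 had the highest Fano factor of any gene after MALAT1, and the cells were divided by its level. FTH1 encodes the heavy chain of ferritin, which stores iron in a form that does not feed oxidative damage, and NRF2 is the factor that switches on antioxidant genes, among them FTH1, NQO1, TXNRD1 and the glutathione synthesis genes GCLC and GCLM. FTH1 was under 50 UMIs per 10000 in 1671 cells, 50 to under 100 in 1454, 100 to under 200 in 145 and 200 or more in 117 cells, or 3.45% of the line (2.87 to 4.13%). The highest cell had 882 UMIs. The division is a range and not a cell type, since 17 cells lay within 20 UMIs below the limit of 200 and 17 within 20 UMIs above it, and both the gene and the limits were chosen after the values were seen. FTH1 has many processed pseudogenes, so its counts are less certain than those of its partners.

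Library measures of the FTH1-high cells were close to those of the FTH1-low cells. Cells with 200 or more had a median of 22007 UMIs, 9.60% mitochondrial UMIs and 97.36% own oligo, against 21327 UMIs, 9.71% and 97.44% in cells under 50. Genes specific to BT-474 were at 7.63% of their BT-474 level in the FTH1-high cells and 6.87% in the FTH1-low cells, and 2 of the 117 were doublets or mixed cells. Across the ranges from low to high, the summed G2/M genes had a median of 77, 56, 50 and 44 UMIs per 10000, so G2/M transcripts were lower where FTH1 was higher, and their part in the differences was not tested.

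In the 117 FTH1-high cells the NRF2 list was high as a group against the 1671 FTH1-low cells. Of 8219 measured genes, 132 (1.61%) stood 2-fold or more above and 168 (2.04%) as far below, and the median log2 ratio was -0.16. Of 17 measured NRF2 and metallothionein genes other than FTH1, 15 stood 2-fold or more above and 0 as far below, with a median of 2.16. Since the cells were divided by a gene of the same list, which varies with these genes, this is a description and not independent evidence. NQO1, a quinone reductase, was at 3380 CPM in FTH1-high cells and 464.0 CPM in FTH1-low cells, a ratio of 7.28 (7.10 to 7.47). TXNRD1, thioredoxin reductase, was at 769.5 CPM in FTH1-high and 137.6 CPM in FTH1-low cells, and the glutathione synthesis genes GCLC and GCLM were at 180.2 and 190.4 CPM in FTH1-high cells and 22.8 and 41.9 CPM in FTH1-low cells. The pentose phosphate genes PGD and TKT were at 461.8 and 999.8 CPM in FTH1-high cells, against 138.8 and 390.3 CPM in FTH1-low cells. HMOX1, heme oxygenase, was at 41.8 CPM in FTH1-high cells, against 2.23 CPM, with a UMI in 22.2% of the thinned FTH1-high cells. FTL, the light chain of ferritin, was at 909.4 CPM in FTH1-high and 653.2 CPM in FTH1-low cells, and MT1X was at 29.1 CPM in FTH1-high and 14.7 CPM in FTH1-low cells. These were the 2 of the 17 under 2-fold.

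Genes outside the list differed as well. GDF15, a stress-induced secreted factor, was at 495.9 CPM in FTH1-high cells, against 3.08 CPM in FTH1-low cells, a ratio of 161.0 (133.4 to 195.8). It had a UMI in 77.8% of the thinned FTH1-high cells and 1.92% of the FTH1-low cells. SLC7A11, the cystine importer, was at 254.7 CPM, against 8.26 CPM, with a UMI in 76.1% of FTH1-high and 7.18% of FTH1-low cells. S100P, a calcium-binding protein, was at 443.2 CPM, against 2.54 CPM, and the parathyroid hormone-related PTHLH was at 55.6 CPM, against 2.15 CPM. S100P had a UMI in 50.4% and PTHLH in 21.4% of the thinned FTH1-high cells. The xenobiotic response genes AHR, CYP1B1 and CYP1A1 were at 63.9, 697.2 and 21.1 CPM in FTH1-high cells, against 12.6, 107.6 and 0.414 CPM in FTH1-low cells. TIPARP, another target of AHR, was at 33.1 CPM in FTH1-high cells, against 28.3 CPM in FTH1-low cells, a ratio of 1.17 whose interval (0.932 to 1.45) includes 1. The AHR repressor gene AHRR had 0 UMIs in FTH1-high cells and 9 UMIs in FTH1-low cells, under the level required of a measured gene. The interval of its ratio, 0 to 7.11, is too wide to read. NFE2L2, which encodes NRF2, was at 224.5 CPM, against 149.7 CPM, and its inhibitor KEAP1 was at 30.5 CPM, against 29.1 CPM.

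A few genes were carried by a small number of the FTH1-high cells. AKR1C2, a steroid reductase, had 243 UMIs in the FTH1-high cells and 0 UMIs in the FTH1-low cells before thinning. After thinning, 12 of the 117 FTH1-high cells had a UMI of AKR1C2. ALDH3A1, an aldehyde dehydrogenase, had 207 UMIs in the FTH1-high cells and 2 UMIs in the FTH1-low cells, a ratio of 1452 with an interval from 397 to 12070. The paralogs of AKR1C2 make its counts uncertain. UMIs of AKR1C2 were present in 10.3% and of ALDH3A1 in 12.8% of the thinned FTH1-high cells. From the lowest FTH1 range to the highest, TDO2 was at 33.1, 94.9, 291.6 and 195.5 CPM, so it was highest in the range below the top.

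Other genes were lower in the FTH1-high cells, among them SLC1A7, IL1R1 and ITPR1, which are among the 25 leading genes of the line. The kinesin gene KIF5C was at 3.996 CPM in FTH1-high cells, against 52.1 CPM in FTH1-low cells, and SLC1A7 was at 10.5 CPM, against 59.9 CPM. IL1R1 was at 76.3 CPM in FTH1-high cells, against 248.4 CPM, a ratio of 0.307 (0.267 to 0.352), with a UMI in 48.7% of FTH1-high and 75.5% of FTH1-low cells. ITPR1 was at 98.1 CPM, against 256.6 CPM, and GHR, the growth hormone receptor gene, was at 15.6 CPM, against 73.0 CPM. TFAP2B was at 248.9 CPM in FTH1-high and 449.9 CPM in FTH1-low cells, and PEG10 at 2020 CPM in FTH1-high and 3802 CPM in FTH1-low cells, differences of less than 2-fold. CLCA2 was at 790.9 and 780.4 CPM, GATA3 at 1042 and 962.0 CPM and ERBB2 at 151.1 and 154.5 CPM in FTH1-high and FTH1-low cells, so these genes lay close together.

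Among the other lists, 7 of 23 genes of the unfolded protein and amino acid response were at least 2-fold higher in FTH1-high cells and 0 lower, with a median of 0.22, and 4 of 24 luminal genes were, with a median of 0.19. Of 53 G2/M genes 10 stood 2-fold or more below and 0 above, their median was -0.81, and G1/S genes had a median of -0.51 with 1 of 43 at least 2-fold lower. In each of the other 14 lists with measured genes, at most 2 genes were 2-fold apart in either direction.

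**Figure D5:**
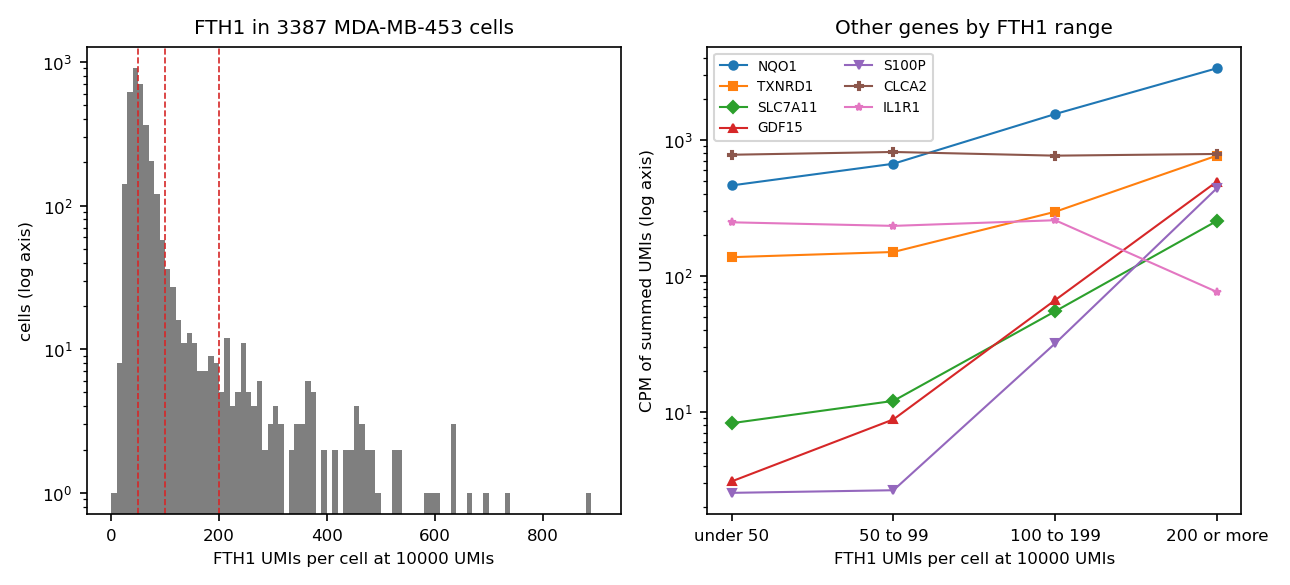
Left, number of MDA-MB-453 cells (log axis) by FTH1 UMIs per cell at 10000 UMIs, with dashed lines at the limits of 50, 100 and 200. Right, CPM (log axis) of 7 genes over the 4 FTH1 ranges, in which NQO1, TXNRD1, SLC7A11, GDF15 and S100P climb to the range of 200 or more while CLCA2 stays near 780 CPM and IL1R1 is lowest at 76.3 CPM.

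Promoter sequence was read for the NRF2 list because its members moved together within the line. The motif searched was TGACNNNGC, the core of the antioxidant response element, on both strands, in the 300 bases from 250 before to 50 after each RefSeq gene start (GRCh38.p14). It was in 5 of the 14 list members with a promoter in the table (35.7%) and in 4687 of all 35116 promoters (13.35%), and in 2 of 13 matched genes among the 20 highest in FTH1-high cells. The list joins metallothioneins with NRF2 targets, and the 5 include the metallothionein genes MT1X and MT2A, so 35.7% is not a share of NRF2 targets alone. The 5 windows that hold the motif follow in the direction of the gene, with the motif or its reverse complement in capitals.
TXNRD1: cacgggctaTGACTTCGCtgttgtcac
GCLM: acgatttctGCTTAGTCAttgtcttcc
MT1X: gaggcagGCAATGTCAgggaaattg
MT2A: agccgcaagTGACTCAGCgcggggcgt
PGD: ctcgccgggGCAATGTCAtctaggtgc
The TXNRD1 window is chr12:104215671-104215697 on the plus strand, with the motif 99 bases before the gene start. The GCLM window is chr1:93909447-93909473 on the minus strand, 34 bases before the start. The MT1X window is chr16:56682220-56682244, 243 bases before the start, and the MT2A window is chr16:56608471-56608497, 104 bases before the start, both on the plus strand. The PGD window is chr1:10398854-10398880 on the plus strand, 201 bases before the start. TXNRD1, GCLM, PGD and MT2A were at least 2-fold higher in FTH1-high cells and MT1X was not. A match in these letters is a description and does not show binding.

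Cells with high FTH1 were also found in other lines. The share of cells at 200 or more UMIs per 10000 was 3.45% in MDA-MB-453, against 0.0450% in BT-474 (1 cell), 0.0355% in MDA-MB-231 (1 cell), 3.55% in HCC38, 6.25% in Hs578T and 4.48% in MDA-MB-436. The median level was 50 UMIs in MDA-MB-453, against 73, 37, 65, 86 and 97 UMIs in those lines, and the Fano factor of FTH1 was highest in MDA-MB-453, at 62.6 against 6.11, 7.22, 35.6, 31.9 and 23.9. The genes that went with FTH1 were not equally apart in each line when the top 5% of cells by FTH1 were set against the cells up to the median. NQO1 was 6.33-fold higher in the top cells of MDA-MB-453, against 1.10-fold in BT-474, 2.17-fold in MDA-MB-231, 2.14-fold in HCC38, 1.65-fold in Hs578T and 1.44-fold in MDA-MB-436. For GDF15 the ratio was 94.1 in MDA-MB-453, against 6.56 in HCC38 and at most 2.62 elsewhere. FTL went the other way, 1.36-fold in MDA-MB-453 and 1.71-fold to 3.04-fold in the other lines. Ratios here are of CPM + 1, and the top 5% of cells differ in their FTH1 ratio too, at 7.22 in MDA-MB-453 and 2.07 to 4.91 elsewhere.

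Cell-cycle genes also varied among the cells. Summed over the 43 G1/S genes, the median cell had 27 UMIs per 10000 in MDA-MB-453, against 9 in BT-474 and 25 to 32 in the other 4 lines. Over the 54 G2/M genes, the median was 64 UMIs in MDA-MB-453, against 19 in BT-474 and 58 to 86 in the others. Clustering of the cells without the listed genes gave a subcluster of 1176 cells (34.4%), a larger one of 2199 cells and 43 remaining cells, 39 of which were doublets or mixed. Against the larger one, the subcluster of 1176 cells had 182 of 8156 genes (2.23%) 2-fold or more above and 9 (0.11%) as far below. Of 54 G2/M genes, 49 stood 2-fold or more above, and their median log2 ratio was 2.06. HMMR, a listed G2/M gene kept out of the clustering, was at 124.4 CPM in it, against 12.3 CPM in the larger one, and KRT7 was at 231.2 CPM, against 438.3 CPM. Other genes of the same cells made the split, so these values are a description. The size of this subcluster was not stable, at 13.96% with another random seed, 42.36% with k-means and 17.03% with fewer variable genes. Its content was not stable either. The median log2 ratio of its G1/S genes, 0.51 here, was negative with that seed and with fewer variable genes.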

How the data were processed

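Raw UMI counts per gene and oligo were deposited by the authors as 1 matrix of both libraries (Cell Ranger 6.1.2, per the file headers), with GRCh38 (hg38) per the submitters' processing notes. Nothing used here names the other settings of alignment and cell calling. UMI counts were summed per line over kept cells and scaled to CPM, and log2 ratios used a pseudocount of 1 CPM. Ratios with an interval used no pseudocount. Intervals are exact Poisson (CPM), Clopper-Pearson (shares) and conditional binomial (ratios). The depth was 68.9 to 91.85 M UMIs per line. Fano factors, shares and sums per cell used cells thinned to 10000 UMIs. Doublets were called with Scrublet in scanpy 1.11.5 at an expected rate of 0.06, and were kept. Subclusters came from Leiden clustering (leidenalg 0.10.2, 2000 variable genes without the listed genes, 20 components, 15 neighbours). TMM factors came from edgeR 4.0.16, as an alternative only. Coordinates are those of GENCODE 29, matched by gene ID for 34587 of 36601 genes. Steps were tested on simulated data.

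Named genes were the 5 markers, the 25 with the largest ratio to the highest other line (50 CPM or more in MDA-MB-453), the 20 with the smallest ratio to the lowest (50 CPM or more in every other line), the ends of each list with the receptors and factors it is named for, and the 20 highest Fano factors. The members and lists were chosen with earlier results of these data known. FTH1 ranges, correlations, runs of 4 or more neighbouring genes, sums over chromosome 17 genes and the motif search were added after the values were seen. Genes named for the FTH1 ranges came from the 20 highest and 20 lowest ratios, the NRF2 list and genes of iron, redox and xenobiotic metabolism, also chosen after the values were seen, as were list members named beyond the 3 at each end, such as CXCL8, EREG, NRG1 and IFITM2. Without a second culture per line, no p-value was computed. Some genes and 1 list are not reported here.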

Additional observations from a re-analysis of the deposited data

How the results depend on the processing

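The results were recomputed with TMM scaling, no cell filter, a stricter filter (5000 UMIs, 10% mitochondrial), doublets and mixed cells removed, a pseudocount of 5 CPM, lower minimum levels and no mitochondrial genes in the total. The 25 leading genes lay above, and the 20 lowest genes below, all other lines under each of these 7. Of 35 marker ratios 12 moved: AZGP1 (log2 5.82) was at 4.76 with the stricter filter and 5.14 at the pseudocount of 5 CPM, and TFAP2B (6.60) at 6.01 with no cell filter and 5.69 at that pseudocount. Of the 20 most variable genes, 15 were shared under the stricter filter. Of 133 list medians under them, 132 stayed within the interval of the median, and the mesenchymal median was -3.62 at the pseudocount of 5 CPM. The count of genes 4-fold below the lowest other line was 35 at a minimum of 25 CPM, against 13. FTH1-high cells were 3.41 to 3.71% of the line under the 4 alternatives, which were chosen after seeing the data, and the NRF2 median was 1.98 to 2.17. All 20 Fano factors fell when cells were thinned to 5000 UMIs but ISG15 was 18.2 under the stricter filter. That filter gave cell-cycle contents of 0.32% (G1/S) and 0.73% (G2/M) of UMIs. The subclusters depended on the settings. The smaller one held 42.36% of cells with k-means, 13.96% with seed 2, 18.5% with the stricter filter and 17.03% with 1000 variable genes. The G1/S median between subclusters was 0.784, -0.788, -0.994 and -0.826 in that order, against 0.514 in the main clustering, so its sign was not stable. The G2/M median was 1.771 with the stricter filter and 1.805 with 1000 genes, against 2.06 in the main clustering. With k-means the mesenchymal median was 0.372. With seed 2, the stricter filter and 1000 genes, in that order, the epithelial median was 0.091, 0.081 and 0.076, the cell-cycle regulator median -0.035, -0.142 and -0.054, the early gene median -0.132, -0.194 and -0.135, and the unfolded protein median 0.144, 0.087 and 0.118. In the main clustering these medians were -0.018, 0.284, 0.133 and -0.014, each of the other sign, so the content of the subclusters depended on the settings as well. The lipid median was 0.281 with the stricter filter and 0.175 with 1000 genes, and the hypoxia median -0.187 with the stricter filter. The cause was not tested. No paired analysis was possible because each line is 1 culture with no replicate. Depth limits single-cell calls: a gene near 1 UMI per 10000 is missed in many cells that express it.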
